A study of Mus musculus with 6 samples.

Results

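The genes of the unfolded protein response and of the linked amino acid response were examined in mouse kidney. The list of 32 genes was set by name from the pathway, and the same arrays had already been analysed when it was drawn up. All 32 were measured, by 77 probe sets, among 18193 genes and 45037 probe sets in all. Each gene is represented by its probe set with the highest mean over the 6 arrays, and 25 of the genes have 45 further probe sets, which are described where they bear on a value. ICD kidneys came from 3 mice that expressed the soluble intracellular domain of megalin, the endocytic receptor of the proximal tubule encoded by Lrp2, and that the series design describes as heterozygous for this domain. WT kidneys came from 3 wild type littermates. All were males of 10 weeks, with 1 Affymetrix array for total kidney RNA of each animal. The labels used here name neither the promoter of the introduced allele nor the cells in which it is active. The comparison asks which transcripts differ between kidneys with and without the domain.

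Secretory and membrane proteins fold in the endoplasmic reticulum (ER) with the help of chaperones, and proteins that fail to fold are moved back to the cytosol and degraded there (ER-associated degradation). When unfolded proteins build up, the sensors ATF6, IRE1 (gene Ern1) and PERK (gene Eif2ak3) start the unfolded protein response. ATF6 and XBP1, whose mRNA is spliced by IRE1, raise chaperone and degradation genes, and PERK phosphorylates eIF2alpha, which slows translation in general but favours that of ATF4. GCN2, which senses amino acid shortage, phosphorylates the same factor, so ATF4 targets report on both inputs. The proximal tubule reabsorbs filtered protein and makes many membrane proteins, and its cells hold abundant ER.

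The promoter letters of the genes described below are given first. The ER stress element (ERSE, CCAAT and CCACG with 9 free bases between them), its variant ERSE-II (ATTGG and CCACG with 1 free base between them), the XBP1-binding element UPRE (TGACGTGG) and the core of the amino acid response element (TGATGNAA) were searched on both strands in RefSeq windows of 250 bases before to 50 after each start (GRCm38.p6). Windows were found for 27 of the 32 genes. ERSE was held by 8 of these and by 0.137% of 27025 genes with a window, and ERSE-II by 2 and by 0.0444%. UPRE was held by 0 of the 27 and by 0.714% of all genes, and the amino acid core by 4 and by 4.51%. ERSE stood in 7 of 12 chaperone windows and 1 of 5 degradation windows. The amino acid core stood in 3 of 6 ATF4 target windows (Asns, Chac1 and Trib3), and Herpud1 held both ERSE-II and the core. The genes were named from the pathway in which these elements are known, so a share above that of all genes is no independent result. A match is a description of letters, not a binding site measured here.

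The 200 bases before the start are shown for 5 genes, read in the direction of transcription, with capitals for the matched elements (an element in capitals that starts CGTGG or TTGCA lies on the opposite strand). Hspa5 and Creld2 are chaperones that varied widely among the wild type arrays. Syvn1 is a degradation gene without overlap between the groups, Herpud1 a degradation gene whose groups overlapped, and Asns an ATF4 target. All 5 hold a match and do not stand for their classes. The window of Sel1l, also without overlap between the groups, held none of the elements. Those of the ATF4 targets Ddit3, Sesn2 and Ppp1r15a held no amino acid core.
Hspa5, chr2:34771890-34772089, plus strand: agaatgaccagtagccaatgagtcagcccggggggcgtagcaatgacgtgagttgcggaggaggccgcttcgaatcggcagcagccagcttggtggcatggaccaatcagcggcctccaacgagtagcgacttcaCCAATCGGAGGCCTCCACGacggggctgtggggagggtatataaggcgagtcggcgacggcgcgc
Creld2, chr15:88819446-88819645, plus strand: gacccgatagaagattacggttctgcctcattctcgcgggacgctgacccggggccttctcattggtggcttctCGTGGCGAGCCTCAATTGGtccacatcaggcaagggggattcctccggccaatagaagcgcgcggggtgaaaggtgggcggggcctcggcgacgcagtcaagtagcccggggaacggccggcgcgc
Syvn1, chr19:6046376-6046575, plus strand: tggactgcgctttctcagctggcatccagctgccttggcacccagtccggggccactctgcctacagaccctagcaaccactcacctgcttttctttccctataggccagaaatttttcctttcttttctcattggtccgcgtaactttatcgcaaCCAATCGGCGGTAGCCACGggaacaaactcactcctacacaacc
Herpud1, chr8:94386229-94386428, plus strand: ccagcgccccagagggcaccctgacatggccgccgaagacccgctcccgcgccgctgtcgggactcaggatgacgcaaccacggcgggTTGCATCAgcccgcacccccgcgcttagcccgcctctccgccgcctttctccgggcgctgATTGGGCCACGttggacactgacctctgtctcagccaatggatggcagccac
Asns, chr6:7693210-7693409, minus strand: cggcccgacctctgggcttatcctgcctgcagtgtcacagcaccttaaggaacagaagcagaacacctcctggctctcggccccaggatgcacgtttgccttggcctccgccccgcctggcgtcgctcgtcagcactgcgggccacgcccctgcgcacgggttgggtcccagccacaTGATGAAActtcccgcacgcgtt

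The ERSE of the other chaperones differ in their inner bases, and are shown to make the shared ends CCAAT and CCACG visible in capitals.
Hsp90b1, chr10:86705638-86705656, minus strand: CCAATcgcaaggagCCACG
Hsp90b1, chr10:86705533-86705551, plus strand: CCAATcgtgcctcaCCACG
Pdia6, chr12:17266491-17266509, plus strand: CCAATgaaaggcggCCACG
Calr, chr8:84847075-84847093, plus strand: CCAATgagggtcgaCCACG
Canx, chr11:50325800-50325818, minus strand: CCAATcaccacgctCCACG
Dnajc3, chr14:118937827-118937845, plus strand: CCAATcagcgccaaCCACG

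No gene of the list passed the test. Limma, a moderated linear model fitted over all 45037 probe sets, gave adjusted p (Benjamini-Hochberg, threshold 0.05) between 0.72 and 1.00 for the 32 genes, and 0 of 45037 probe sets passed (0%), where 5.86% had an unadjusted p under 0.05. The values below therefore describe 6 animals. In ICD kidneys 24 of 32 genes were lower, with a median difference (ICD minus WT) of -0.086 on the log2 scale, and 8 were higher. Over all genes 56.1% were lower and the median was -0.012. At an unadjusted limma p under 0.05, 5 of 32 were lower and 0 higher, where the background was 2.2% lower and 1.74% higher. All 3 ICD values lay below all 3 WT values for 6 genes, namely Hsp90b1, Pdia4, Sdf2l1, Sel1l, Syvn1 and Ppp1r15a, and above them for 0, where the background was 5.44% below and 3.66% above. Of the 45 further probe sets, 36 were lower in ICD kidneys, where 51.8% of the further probe sets of all genes were. The sign of the gene's brightest probe set was shared by 32 of the 45 (71.1%), against 57.9% over all genes, and 13 had the other sign, including all further ones of Canx, Pdia6, Edem1, Derl1 and Trib3. The median difference of the list was -0.060 without the animal WT 1, -0.14 without ICD 3 and -0.16 without WT 3.

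**Figure D1:**
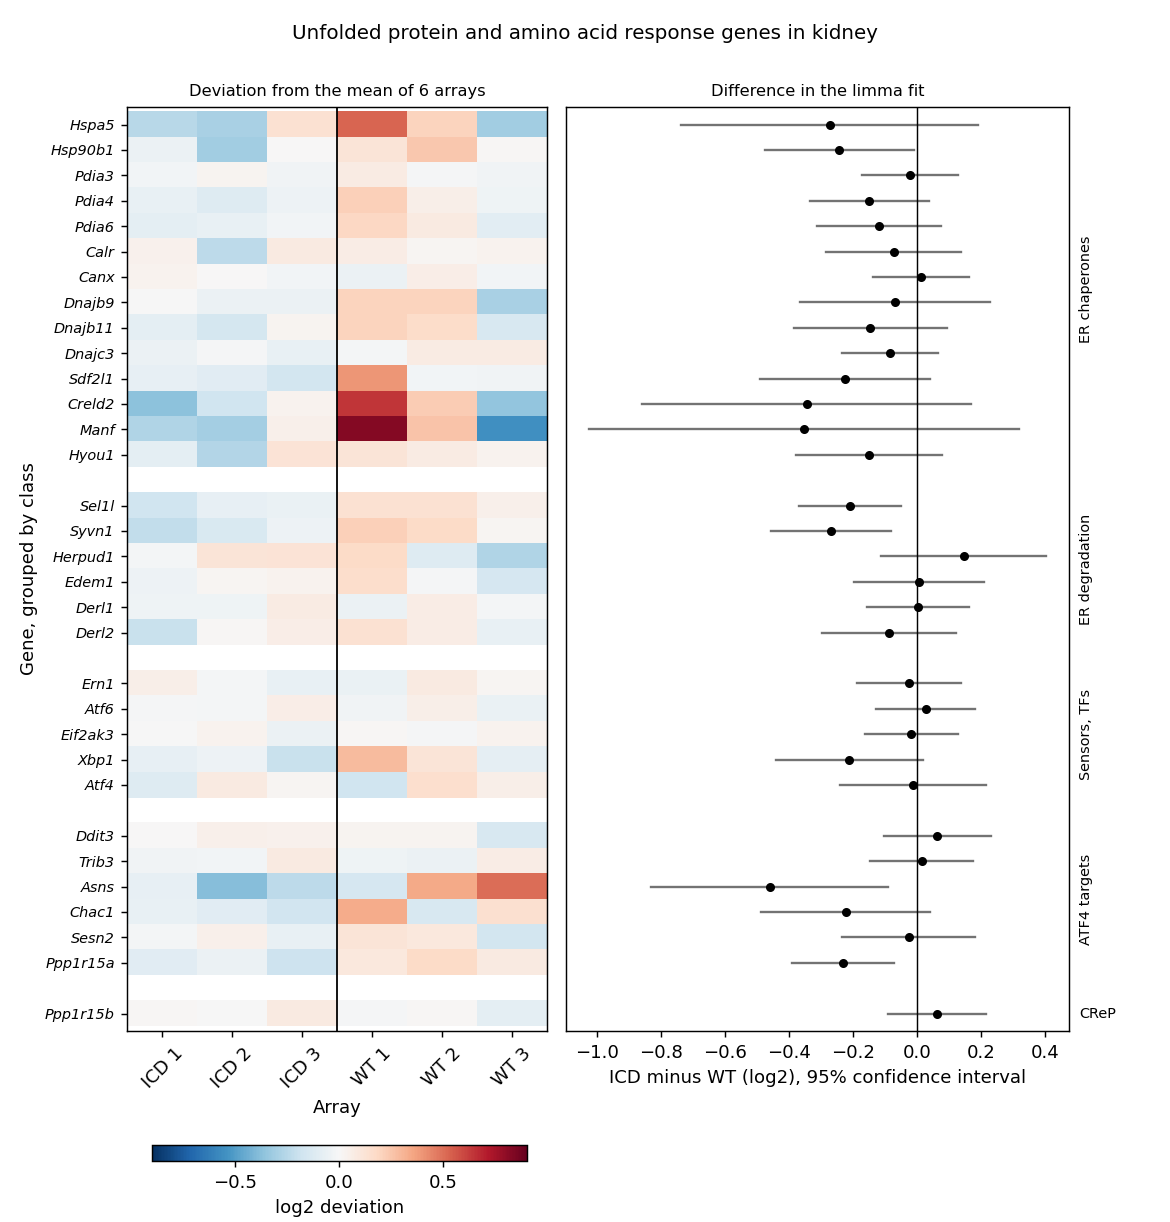
Left, the deviation of each gene from its mean over the 6 arrays (log2, colour scale); right, the difference ICD minus WT (log2) with its 95% confidence interval from limma. Rows are the 32 genes by class (TFs, transcription factors; CReP, the product of Ppp1r15b), and most points lie left of 0, while the WT 1 column is the reddest among chaperones and the WT 2 and WT 3 cells are the reddest for Asns.

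Chaperones of the ER lumen were lower in ICD kidneys for 13 of 14 genes, with a median difference of -0.15, but their level turned on which wild type animal was looked at. Hspa5, the master chaperone BiP, read 12.33, 12.29 and 12.72 (log2) in ICD kidneys, against 13.10, 12.78 and 12.27 in WT kidneys. The WT animals spanned the whole range, with WT 1 highest and WT 3 lowest of all 6, so the groups overlapped. The difference was -0.27 ± 0.20 (SE, limma adjusted p = 0.946), and the other Hspa5 probe sets differed by -0.34 and -0.14. The last of these did not show the WT spread. It read 9.95, 9.54 and 9.99 in ICD kidneys, against 10.00, 9.92 and 9.99 in WT kidneys, with ICD 2 lowest. Manf, a secreted cytoprotective factor that is retained in the ER, read 10.22, 10.19 and 10.54 in ICD kidneys, against 11.32, 10.75 and 9.94 in WT kidneys. Creld2, an ER protein with disulfide isomerase activity, read 9.13, 9.32 and 9.53 in ICD kidneys, against 10.14, 9.73 and 9.14 in WT kidneys. Both again had WT 1 highest and ICD animals inside the WT range or at its edge, and differed by -0.35 ± 0.29 and -0.35 ± 0.22 (limma adjusted p = 0.952 and 0.932).

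Other chaperones kept the groups apart by small margins. Hsp90b1, the ER paralogue of HSP90 known as GRP94, read 11.93, 11.67 and 11.99 in ICD kidneys, against 12.10, 12.23 and 11.998 in WT kidneys. ICD 3 and WT 3 nearly touched, and the difference was -0.24 ± 0.10 (limma unadjusted p = 0.0415, adjusted p = 0.84), and -0.15 without ICD 2. Its unadjusted p was 0.141 without ICD 2, 0.075 without WT 1 and 0.137 without WT 2. Its second probe set differed by -0.10 with overlapping groups. Pdia4, a disulfide isomerase, read 8.62, 8.57 and 8.640 in ICD kidneys, against 8.90, 8.73 and 8.645 in WT kidneys, so that ICD 3 and WT 3 nearly touched here too. Sdf2l1, part of an ER chaperone complex, read 7.75, 7.73 and 7.66 in ICD kidneys, against 8.22, 7.80 and 7.80 in WT kidneys. For both, every ICD value lay below every WT value, while WT 1 stood well above the rest, and they differed by -0.15 ± 0.081 and -0.23 ± 0.12 (limma adjusted p = 0.902 and 0.892), and by -0.080 and -0.087 without WT 1. The second Pdia4 probe set differed by -0.032 with overlapping groups.

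Calr, the lectin chaperone calreticulin, showed no such order on its brightest probe set. It read 13.49, 13.21 and 13.53 in ICD kidneys, against 13.51, 13.46 and 13.48 in WT kidneys. ICD 2 alone stood low there. Its further probe sets differed by -0.13 and -0.10 with overlapping groups. On both of them ICD 1 and ICD 2 lay below every WT value. Dnajb9, an HSP40 co-chaperone of BiP, read 11.08, 11.03 and 11.03 in ICD kidneys, against 11.28, 11.28 and 10.79 in WT kidneys, with WT 3 lowest of all. Dnajb11, a further HSP40 of the lumen, differed by -0.15, Hyou1, the nucleotide exchange factor of BiP, by -0.15, Pdia6, a disulfide isomerase, by -0.12, and Dnajc3, an inhibitor of PERK that also binds unfolded protein in the lumen, by -0.085. Hyou1 was at -0.057 without ICD 2 and -0.25 without ICD 3, and its further probe sets differed by -0.025 and 0.012. Dnajb11 was at -0.084 without WT 1 and -0.26 without WT 3. Pdia6 was at -0.056 without WT 1 and -0.20 without WT 3, and its second probe set at 0.0008. Pdia3, the isomerase that works with the lectin chaperones, and Canx, the membrane lectin calnexin, differed by -0.022 and 0.011, with intervals of -0.17 to 0.13 and -0.14 to 0.16.

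Among the 14 chaperones WT 1 held the highest value of the 6 arrays for 9, where it did so for 2860 of all 18193 genes. WT 3 was the lowest WT array for 11 of 14, and for 6054 of all genes. The difference of the class therefore depended on these animals. The median was -0.080 without WT 1, at which Manf differed by -0.029 and Hspa5 by -0.080. Without WT 3 the median was -0.22. As WT 3 was the lowest WT array for 11 of 14 chaperones, leaving it out moves their differences down by construction. In that fit 9 of 14 had an unadjusted limma p under 0.05 (Hspa5 -0.50, Manf -0.72, Creld2 -0.61), all lower, where the background was 2.15%. This count is therefore no independent result. It was 0 without WT 1, WT 2 or ICD 2, 1 without ICD 1 and 2 without ICD 3. Over the whole list 13 genes had an unadjusted p under 0.05 without WT 3, all lower, and 3 without ICD 2, where the background was 2.14%. WT 3 was the lowest WT array for 22 of the 32 genes, so the same limit holds for the count of 13. The smallest adjusted p for the list without WT 3 was 0.76.

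**Figure D2:**
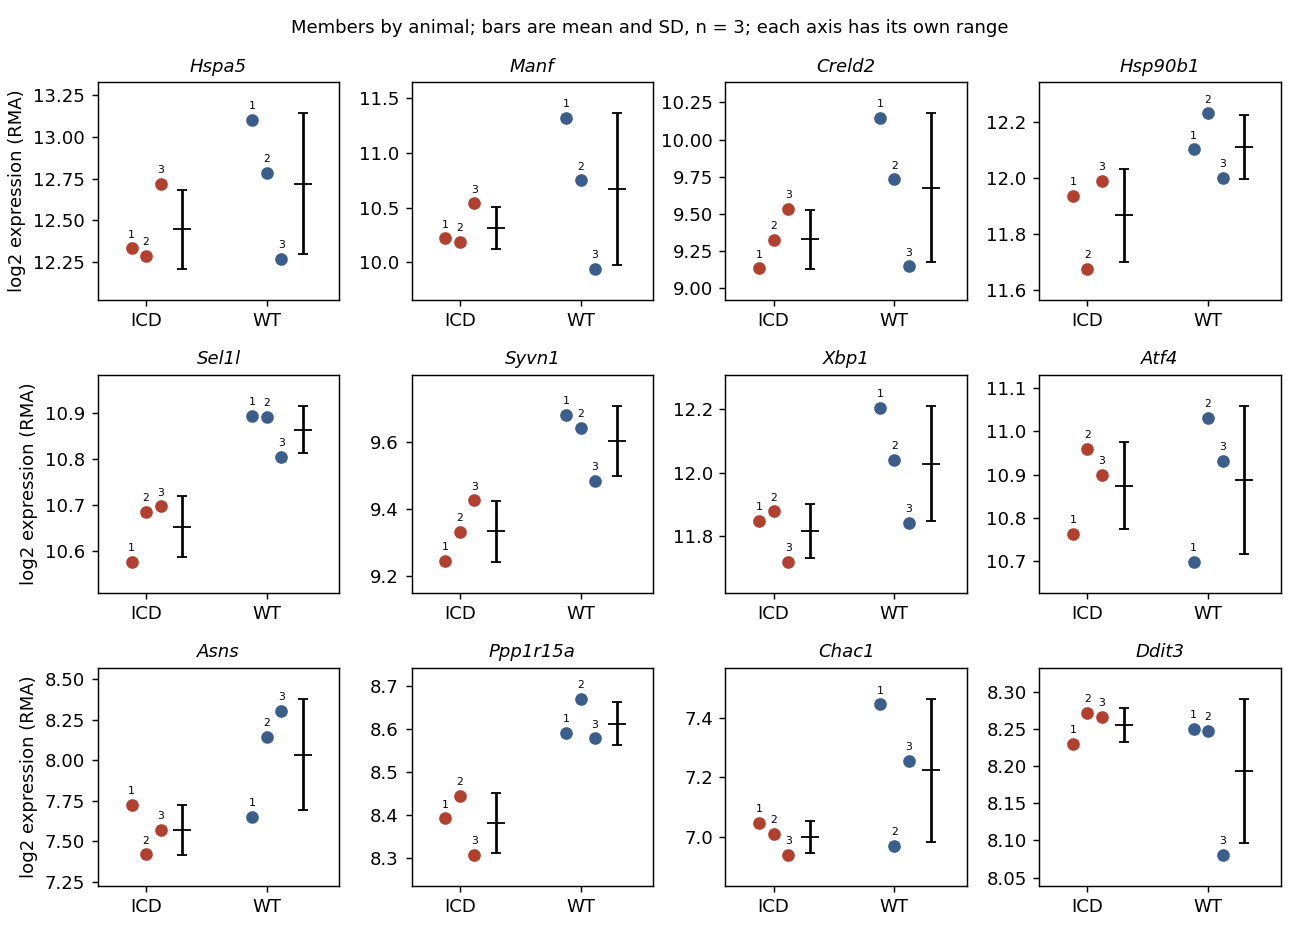
Log2 expression (RMA, vertical axes, each with its own range) of 12 genes in 3 ICD and 3 WT animals; numbers beside points are the replicate numbers, and bars are the mean and SD of 3. Hspa5, Manf and Creld2 spread widely among WT animals with WT 1 on top, Sel1l, Syvn1 and Ppp1r15a keep all ICD points below all WT points, and Asns has WT 1 among the ICD points.

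Degradation genes split. Sel1l and Syvn1, which encode the adaptor SEL1L and the ubiquitin ligase HRD1 of 1 membrane complex, were both lower in every ICD animal. Sel1l read 10.58, 10.68 and 10.70 in ICD kidneys, against 10.89, 10.89 and 10.80 in WT kidneys, a difference of -0.21 ± 0.069 (limma unadjusted p = 0.0152, adjusted p = 0.725). Syvn1 read 9.25, 9.33 and 9.43 in ICD kidneys, against 9.68, 9.64 and 9.48 in WT kidneys, a difference of -0.27 ± 0.082 (limma unadjusted p = 0.0106, adjusted p = 0.72). Neither gene's groups overlapped. All 5 Sel1l probe sets were lower (-0.24 to -0.086), 3 of them without overlap, and the second Syvn1 probe set differed by -0.19 with WT 3 inside the ICD range.

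Both differences held their sign without any 1 animal, at -0.24 to -0.17 for Sel1l and -0.33 to -0.22 for Syvn1. Leaving out ICD 1 gave Sel1l an unadjusted limma p of 0.0632 (adjusted p = 0.999). The rest of the class did not share them. Herpud1, an ER membrane protein that recruits the degradation complex, read 11.93, 12.06 and 12.07 in ICD kidneys, against 12.12, 11.83 and 11.68 in WT kidneys. It was the gene of the list with the highest positive difference (0.14 ± 0.11 SE, limma adjusted p = 0.95), and was 0.27 without WT 1 (limma unadjusted p = 0.0185) but 0.046 without WT 3. Its second probe set differed by 0.082. Edem1, which hands misfolded glycoproteins over to degradation, read 10.28, 10.35 and 10.36 in ICD kidneys, against 10.48, 10.31 and 10.17 in WT kidneys, and differed by 0.0041. Derl1 and Derl2, channel proteins of the pathway, differed by 0.0015 and -0.088. The Derl2 difference was -0.011 without ICD 1 and -0.14 without WT 3, and its second probe set differed by -0.026. Of the 6 degradation genes 3 were lower and 3 higher, with a median of -0.043, of 0.0047 without ICD 1, -0.087 without ICD 3 and -0.11 without WT 3.

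The sensors themselves hardly differed. Ern1 read 9.74, 9.67 and 9.62 in ICD kidneys, against 9.63, 9.77 and 9.71 in WT kidneys. Atf6 read 8.73, 8.72 and 8.80 in ICD kidneys, against 8.71, 8.79 and 8.68 in WT kidneys. Eif2ak3 read 9.07, 9.10 and 9.02 in ICD kidneys, against 9.08, 9.06 and 9.10 in WT kidneys. The groups overlapped for all 3 genes, with differences of -0.026 (95% confidence interval -0.19 to 0.14), 0.026 (-0.13 to 0.18) and -0.018 (-0.16 to 0.13). These arrays measure total transcript, and activation of the sensors by phosphorylation or cleavage was not measured.

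Xbp1 and Atf4 are the transcription factors downstream of the sensors. Xbp1 read 11.85, 11.88 and 11.72 in ICD kidneys, against 12.20, 12.04 and 11.84 in WT kidneys. Only WT 3 lay within the ICD range, and the difference was -0.21 ± 0.10 (limma unadjusted p = 0.0651, adjusted p = 0.87), and -0.13 without WT 1. All 4 probe sets lay between -0.21 and -0.13. The spliced and unspliced forms of Xbp1 cannot be told apart in these values. Atf4 read 10.76, 10.96 and 10.90 in ICD kidneys, against 10.70, 11.03 and 10.93 in WT kidneys, with WT 1 lowest of all 6, a difference of -0.013 ± 0.10. Atf4 is controlled mostly at translation, which arrays do not measure.

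ATF4 targets had the largest single difference of the list. Asns, asparagine synthetase, read 7.73, 7.42 and 7.57 in ICD kidneys, against 7.65, 8.15 and 8.30 in WT kidneys. WT 1, the highest WT array for Hspa5, fell among the ICD animals here, and WT 2 and WT 3 stood above them. The difference was -0.46 ± 0.16 (SE, limma unadjusted p = 0.0205, adjusted p = 0.766), and -0.65 without WT 1 (adjusted p = 0.363). It was -0.32 without WT 3, -0.38 without ICD 2 and -0.40 without WT 2, with unadjusted limma p of 0.0726, 0.076 and 0.0675. The second probe set differed by -0.54. Ppp1r15a (GADD34), the stress-induced subunit that directs a phosphatase to eIF2alpha, read 8.39, 8.44 and 8.31 in ICD kidneys, against 8.59, 8.67 and 8.58 in WT kidneys. Its groups did not overlap, and its difference of -0.23 ± 0.069 had the smallest unadjusted limma p of the 32 genes (0.00977, adjusted p = 0.72). It stayed between -0.26 and -0.19 without any 1 animal. Only 1 probe set measured it.

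Chac1, a glutathione-degrading enzyme, read 7.05, 7.01 and 6.94 in ICD kidneys, against 7.44, 6.97 and 7.26 in WT kidneys, so that WT 2 lay inside the ICD range (difference -0.22 ± 0.12 SE, limma adjusted p = 0.894, at -0.11 without WT 1 and -0.35 without WT 2). The other targets did not follow. Ddit3, the transcription factor CHOP, read 8.23, 8.27 and 8.27 in ICD kidneys, against 8.25, 8.25 and 8.08 in WT kidneys, a difference of 0.063 ± 0.073 that was 0.0068 without WT 3. Its dimmer probe set read 6.98, 7.31 and 7.10 in ICD kidneys, against 6.90, 6.72 and 6.78 in WT kidneys, a difference of 0.33 without overlap (limma unadjusted p = 0.00951, adjusted p = 0.72). Thus the probe sets of Ddit3 gave different sizes of the same sign.

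Trib3, a pseudokinase that restrains ATF4, read 6.59, 6.60 and 6.71 in ICD kidneys, against 6.59, 6.58 and 6.69 in WT kidneys. Sesn2, a leucine sensor of the mTORC1 pathway, read 8.85, 8.91 and 8.80 in ICD kidneys, against 8.98, 8.96 and 8.70 in WT kidneys. Neither separated the groups, at 0.014 and -0.027. Ppp1r15b, the constitutive partner of the eIF2alpha phosphatase, read 10.00, 9.99 and 10.07 in ICD kidneys, against 9.98, 10.00 and 9.90 in WT kidneys, a difference of 0.061 that stands opposite in sign to that of Ppp1r15a. In the class of 6 ATF4 targets 4 genes were lower and the median was -0.13 (-0.057 without WT 1).

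**Figure D3:**
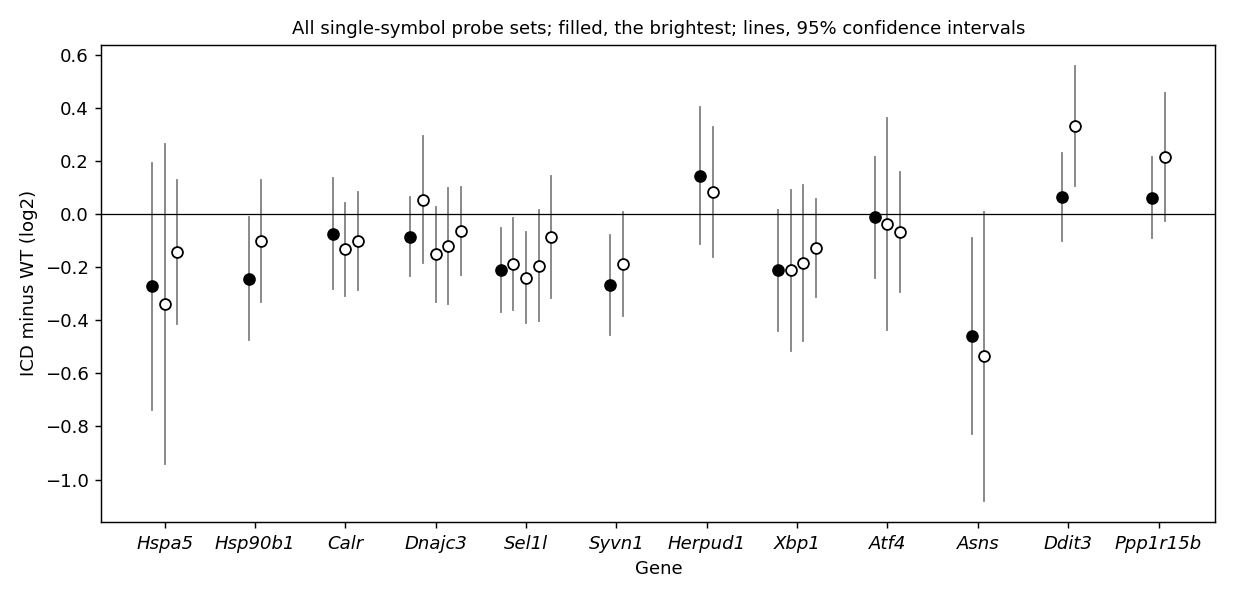
Difference ICD minus WT (log2, vertical axis) of each probe set of 12 genes, filled for the brightest and open for the others, with 95% confidence intervals from limma. All probe sets of Hspa5, Calr, Sel1l, Syvn1, Xbp1 and Asns lie below 0, those of Herpud1, Ddit3 and Ppp1r15b above it, and those of Dnajc3 on both sides.

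The classes ordered the animals differently. The mean deviation of the 14 chaperones from their 6-array mean was -0.097, -0.15 and 0.0024 in ICD kidneys, against 0.25, 0.12 and -0.12 in WT kidneys. That of the 6 degradation genes was -0.12, -0.017 and 0.031 in ICD kidneys, against 0.13, 0.051 and -0.074 in WT kidneys. In both classes WT 3 fell within the ICD range and WT 1 was highest. The ATF4 targets had -0.049, -0.078 and -0.090 in ICD kidneys, against 0.063, 0.073 and 0.080 in WT kidneys, so that here WT 3 was on the side of the other WT animals. That even spacing was a mean over unlike genes: Chac1 was highest in WT 1, Ppp1r15a in WT 2 and Asns in WT 3. Whether the class differences differ from each other was not tested.

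**Figure D4:**
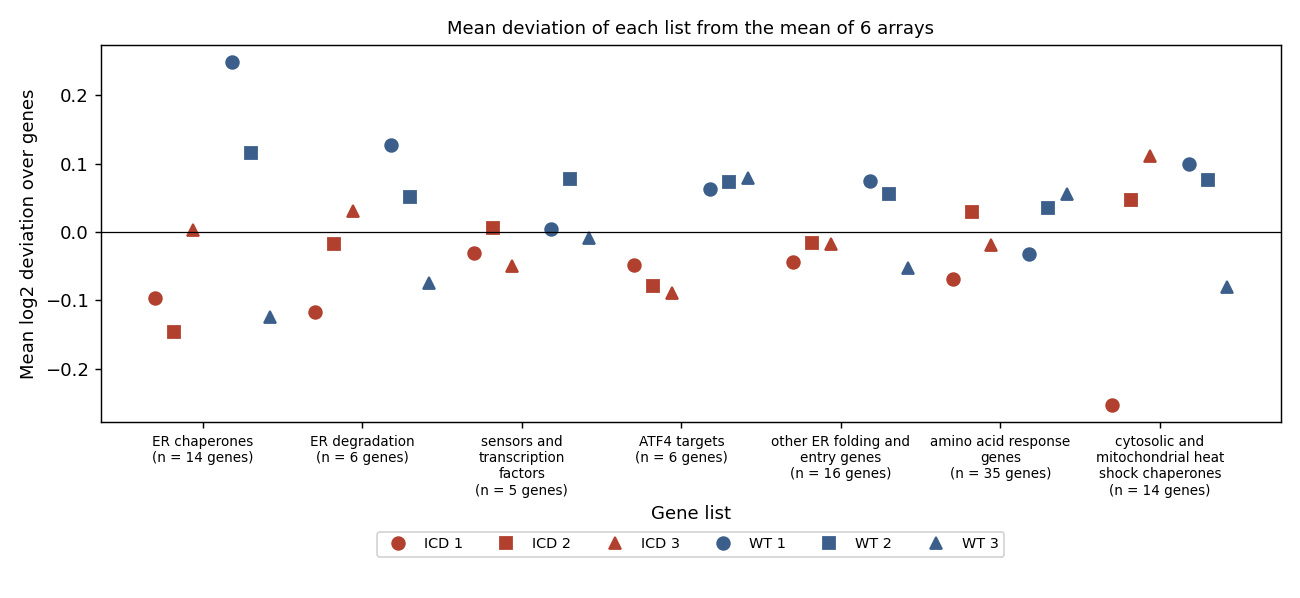
Mean deviation over the genes of each list from their mean over the 6 arrays (log2, vertical axis), by animal: red for ICD, blue for WT, with circle, square and triangle for replicates 1, 2 and 3. WT 3 lies within the ICD range for chaperones (-0.12) and degradation genes (-0.074) but with WT 1 and WT 2 for ATF4 targets (0.080).

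Further genes of the same pathways were read from lists that did not overlap the 32. All 16 other genes of ER folding and protein entry were lower in ICD kidneys, but by a median of only -0.050 (-0.12 to -0.0053). Of these genes 0 had an unadjusted limma p under 0.05, where the background was 2.2% lower and 1.74% higher. Their median was -0.024 without WT 2, -0.031 without WT 1 and -0.098 without WT 3. P4hb, protein disulfide isomerase itself, differed by -0.088, Hspa13 by -0.10, Ero1b, an oxidase that recharges the isomerases, by -0.12 and Txndc5 by -0.070. Of 10 other degradation genes 6 were lower and 4 higher (median -0.037), with Faf2 at 0.077, Man1b1 at -0.080, Stt3b at -0.058 and Os9 at -0.049. Faf2 was the 1 gene of these 10 with all ICD values above all WT values, where the background was 3.66%, and 0 had them below. Of 12 other signalling genes 6 were lower and 6 higher (median 0.0019), with Wfs1 at -0.096, Eif2ak1, the heme-regulated eIF2alpha kinase, at -0.069, and the ERSE-binding subunits Nfya and Nfyb at 0.068 and 0.062.

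The wider amino acid response held 24 lower and 11 higher of 35 measured genes, with a median of -0.080 (-0.036 without WT 3 and -0.040 without ICD 1). At an unadjusted limma p under 0.05 were 1 lower and 0 higher, where the background was 2.2% lower and 1.74% higher. Yars, tyrosyl-tRNA synthetase, read 9.08, 9.06 and 9.18 in ICD kidneys, against 9.41, 9.16 and 9.33 in WT kidneys (difference -0.20 ± 0.083 SE, adjusted p = 0.843). Nupr1, a stress-induced chromatin protein, read 8.26, 8.57 and 8.58 in ICD kidneys, against 8.57, 8.88 and 8.73 in WT kidneys (-0.26 ± 0.11). Cars, cysteinyl-tRNA synthetase, read 7.94, 7.97 and 7.95 in ICD kidneys, against 7.98, 8.17 and 8.16 in WT kidneys, without overlap (-0.15 ± 0.075). Cars was the 1 gene of the 35 with all ICD values below all WT values, where the background was 5.44%. Aldh18a1, of proline synthesis, differed by -0.14 ± 0.078. WT 1 was the lowest WT array for 19 of 35 of these genes, and for 6417 of all 18193 genes. It was the highest WT array for 6 of the 35, Yars among them. Of the 6 ATF4 targets WT 1 was the lowest WT array for 1, Asns, and the highest for 3.

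Heat shock chaperones of the cytosol and mitochondria were lower for 12 of 14 genes (median -0.079), but the value moved with the arrays left out: their mean deviation was -0.25, 0.047 and 0.11 in ICD kidneys, against 0.099, 0.076 and -0.081 in WT kidneys, and their median was -0.0029 without ICD 1. It was -0.039 without WT 1, -0.043 without WT 2, -0.13 without WT 3 and -0.19 without ICD 3. Dnajb1, an HSP40 of the cytosol, stood opposite to the list, with 10.32, 10.68 and 10.57 in ICD kidneys, against 10.13, 10.24 and 10.06 in WT kidneys (0.38 ± 0.10 SE, limma unadjusted p = 0.00556, adjusted p = 0.714). Hspb1, Cryab and Hsp90aa1 differed by -0.26, -0.17 and -0.13, with overlapping groups.

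Measures of RNA and of tissue makeup moved with some of these values. The 18S ribosomal control probe sets averaged 7.79, 7.73 and 7.21 (log2) in ICD kidneys, against 7.13, 7.14 and 7.37 in WT kidneys, and the 3 arrays with the highest 18S values (ICD 1, ICD 2 and WT 3) were those with the lowest mean chaperone deviation. The log2 gap between the 3′ and 5′ control probe sets was 0.13, 0.12 and 0.17 for Gapdh in ICD kidneys, against 0.17, 0.18 and 0.15 in WT kidneys, and 0.96, 0.93 and 0.87 for Actb in ICD kidneys, against 0.82, 1.00 and 0.95 in WT kidneys. The summed level (mean log2 value) of 11 proximal tubule markers was 12.83 to 12.96 in ICD kidneys, against 12.02 to 12.94 in WT kidneys, with WT 3 lowest, so the labelled tissue shows its main cell type on every array. Of these 11 markers 8 were higher in ICD kidneys, and their median difference was 0.070. One bright Lrp2 probe set read 12.25, 12.37 and 12.26 in ICD kidneys, against 13.01, 12.97 and 12.13 in WT kidneys, and the other bright one differed by 0.0079.

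Podocyte markers were higher in ICD kidneys for 6 of 6 (8.30 to 8.42, against 7.83 to 8.07 in WT kidneys), and principal cell markers lower for 4 of 5 (9.28 to 9.45, against 9.52 to 9.58 in WT kidneys). Their median differences were 0.46 and -0.22. At an unadjusted limma p under 0.05 were 6 of 6 (background 1.74% higher) and 3 of 5 (background 2.2% lower). Groups did not overlap for 6 of 6 (background 3.66% above) and 3 of 5 (background 5.44% below). Markers of the thick ascending limb were lower for 4 of 5 (11.51 to 11.64, against 11.63 to 11.76 in WT kidneys) and of urothelium for 5 of 6 (7.47 to 7.60, against 7.63 to 7.66 in WT kidneys). Endothelial markers were higher for 6 of 6 (8.43 to 8.65, against 8.11 to 8.67 in WT kidneys), those of stroma and smooth muscle for 7 of 7 (9.22 to 9.64, against 8.97 to 9.64 in WT kidneys), myeloid markers for 4 of 6 (7.51 to 7.84, against 7.52 to 7.70 in WT kidneys) and adipose markers for 3 of 3 (10.16 to 10.73, against 9.72 to 10.41 in WT kidneys). Markers of plasma and B cells, which are rich in ER, were lower for 4 of 5 (6.29 to 6.63, against 6.34 to 6.63 in WT kidneys). The part of these measures in the differences of the ER genes was not tested. In whole kidney RNA, fewer cells of a type and less RNA per cell cannot be told apart.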

How the data were processed

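Kidney RNA of 3 ICD and 3 WT animals was measured on 6 arrays. The values were deposited as log2 expression made by RMA, per the submitters' processing notes. RMA corrects background, quantile-normalizes arrays and summarises probe sets by median polish, which compresses differences of dim probe sets. Its version is not stated in the labels. Array medians lay between 6.62 and 6.66. The number of arrays limits the precision: intervals reached a median of 0.21 to either side of a member's difference.

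Control rows (64 of 45101) were left out. Of 45037 probe sets 34945 had 1 gene symbol in the platform annotation, and no symbol had to be updated through RefSeq. Probe sets ending in _s_at, _x_at or _a_at can detect related transcripts. Limma 3.58.1 (R 4.3.3) tested ICD against WT (genotype as the only term, 2-sided, Benjamini-Hochberg over 45037 probe sets), which was checked on simulated data with 200 changed probe sets. A permutation test of 3 against 3 animals cannot go below p = 0.1 and was not used. The genes and lists were chosen with earlier results of these data known. All 32 genes are named, with values by animal for those at unadjusted p under 0.05, those without overlap and the best known of each class, and up to 4 genes of each further list by smallest p. Values by animal were added for Manf and Creld2, the widest spread, after their values were seen. List medians carry no test. Alternatives left out each array, renormalized, recentred, reweighted or filtered the arrays, changed the prior, averaged probe sets, or used the replicate number as a block. Same-numbered deviations from group means correlated between -0.047 and 0.0077 over probe sets, and differently numbered ones between -0.062 and 0.076. These values show no shared signal of same-numbered animals, but cannot tell whether the numbers pair litters or processing.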

Additional observations from a re-analysis of the deposited data

How the results depend on the processing

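In none of the 13 alternatives did a gene of the list pass limma's adjusted threshold. Over all probe sets 1 passed with a trended and robust prior, and 0 to 1 without 1 array (1 each without ICD 1, ICD 2 or WT 3). Genes of the list at unadjusted limma p under 0.05 numbered 3 (without ICD 2) to 13 (without WT 3), all lower in these 2 fits. Over all genes 2.14% and 2.15% were lower at that threshold in the same fits. Leaving out WT 3 moves down by construction the differences of the 22 genes in which it was the lowest WT array. The median of the ATF4 targets was -0.22 among bright probe sets, which leaves out Trib3, and -0.16 to -0.057 without 1 array. That of the sensors and transcription factors was -0.061 to 0.0072, and that of the other degradation genes -0.049 to 0.016 without 1 array and 0.020 with the mean of probe sets. With the replicate block, 0 genes of the list passed. In this balanced design the block cannot change a difference, so the 24 lower genes and every median were fixed in advance.

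Of 415 differences of the 32 genes under alternatives, 381 kept their sign, and 21 genes kept it throughout. The trended and robust prior, the filter for bright probe sets and the replicate block cannot change a difference, so their share of the 381 was fixed in advance. The mean of probe sets likewise cannot change the difference of a gene with 1 probe set. With the mean of probe sets the sign turned for Canx (-0.032), Edem1 (-0.017), Derl1 (-0.032), Eif2ak3 (0.025) and Trib3 (-0.0086). It turned for Edem1 with median centring (-0.0033) and array weights (-0.0043), and for Derl1 with quantile normalization (-0.011) and median centring (-0.0059). Without 1 array, differences ranged from -0.044 to 0.0094 for Pdia3, -0.13 to 0.025 for Calr, -0.011 to 0.043 for Canx, -0.24 to 0.013 for Dnajb9, -0.072 to 0.085 for Edem1, -0.035 to 0.034 for Derl1, -0.061 to 0.0072 for Ern1, -0.038 to 0.0053 for Eif2ak3, -0.11 to 0.059 for Atf4, -0.024 to 0.050 for Trib3 and -0.12 to 0.025 for Sesn2. The cause was not tested. The width of the intervals, set by 3 animals a group, leaves differences of the size seen here within the spread for most of these genes.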
